A study of Mus musculus with 6 samples.

Results

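The genes described here are 40 genes of homologous recombination, of the Fanconi pathway and of the checkpoint kinases that answer to damaged or stalled DNA, out of 55335 genes counted. They were found by symbol, through the Ensembl identifiers that the GENCODE M21 annotation of GRCm38 gives. By role, 19 act in recombination, 12 in Fanconi repair and 9 in the checkpoint. All 40 passed the filter on low counts, as did 13642 genes in all, and the lowest count of any of the 40 genes in a library was 20.

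RNA was sequenced from 6 cultures of B16 mouse melanoma cells without added treatment, 3 of scrambled control cells (replicates 1, 2 and 3, genotype WT in the labels) and 3 of IFNγR1KO cells (replicates 10, 11 and 12). Per the methods of the study, B16-BL6 cells were transduced with lentiCRISPR v2, which carries Cas9 and a guide, and selected with puromycin, so both groups share vector and selection. The guide of the control cells targets GFP. More than 1 guide is named against Ifngr1, the gene of the ligand-binding chain of the interferon-γ receptor. Selected cells were seeded at about 1 cell a well. For IFNγR1KO, the clones that grew were screened by their expression of the surface protein PD-L1 after interferon-γ. Whether the sequenced control cells were a clone or a pool is not given. Which guide and clone was sequenced is not given, and cultures were seeded as replicates of a line, so p-values measure the spread between cultures and cannot tell the knockout from other differences between the lines.

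Homologous recombination repairs a double-strand break by copying the sister chromatid: nucleases resect the ends, BRCA2 with its partners prepares the single strand for invasion, and translocases and helicases carry the strand exchange through. The Fanconi pathway opens crosslinks between strands by attaching ubiquitin to the FANCD2-FANCI clamp, and hands the break to recombination. ATM answers to breaks and ATR to stalled forks. Many of these genes are known to be transcribed most in late G1 and S phase, so that in RNA of whole cultures fewer cells that make a transcript and less of it per cell cannot be told apart.

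Recombination, Fanconi and checkpoint genes were lower in IFNγR1KO cells more often than higher. By the quasi-likelihood test of edgeR, adjusted over all tested genes after Benjamini and Hochberg, 16 of the 40 genes fell at an adjusted p under 0.05 and 1, Rad52, rose, beside 7.62% of all tested genes that fell and 7.73% that rose. By DESeq2 15 fell and 1 rose, beside 7.17% and 5.99% of all genes it tested. The median log2 fold change was -0.47 over the 40 genes and -0.0015 over all tested genes, and 29 of the 40 estimates were below 0. The levels of the genes that fell were between 42.0% and 72.5% of scrambled control. Topbp1 and Clspn, both of the ATR branch, also passed the study's threshold for a differentially expressed gene (DEG), an absolute log2 fold change above 1, beside 1.96% of all tested genes that did so downward. In 21 genes every IFNγR1KO library lay below every scrambled control library, beside 16.6% of all tested genes, and in Rad52 and Rbbp8 every one lay above, beside 16% of all tested genes. The share that fell was 55.6% of the checkpoint genes, 36.8% of the recombination genes and 33.3% of the Fanconi genes. These shares rest on 9 to 19 genes each, and the differences between them were not tested. All checkpoint genes but Chek2, Clspn and Timeless lie on chromosome 9, where 14% of tested genes fell. Off that chromosome Clspn was the only checkpoint gene that fell. The part of chromosome 9 in the share of the checkpoint genes was not tested.

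**Figure D1:**
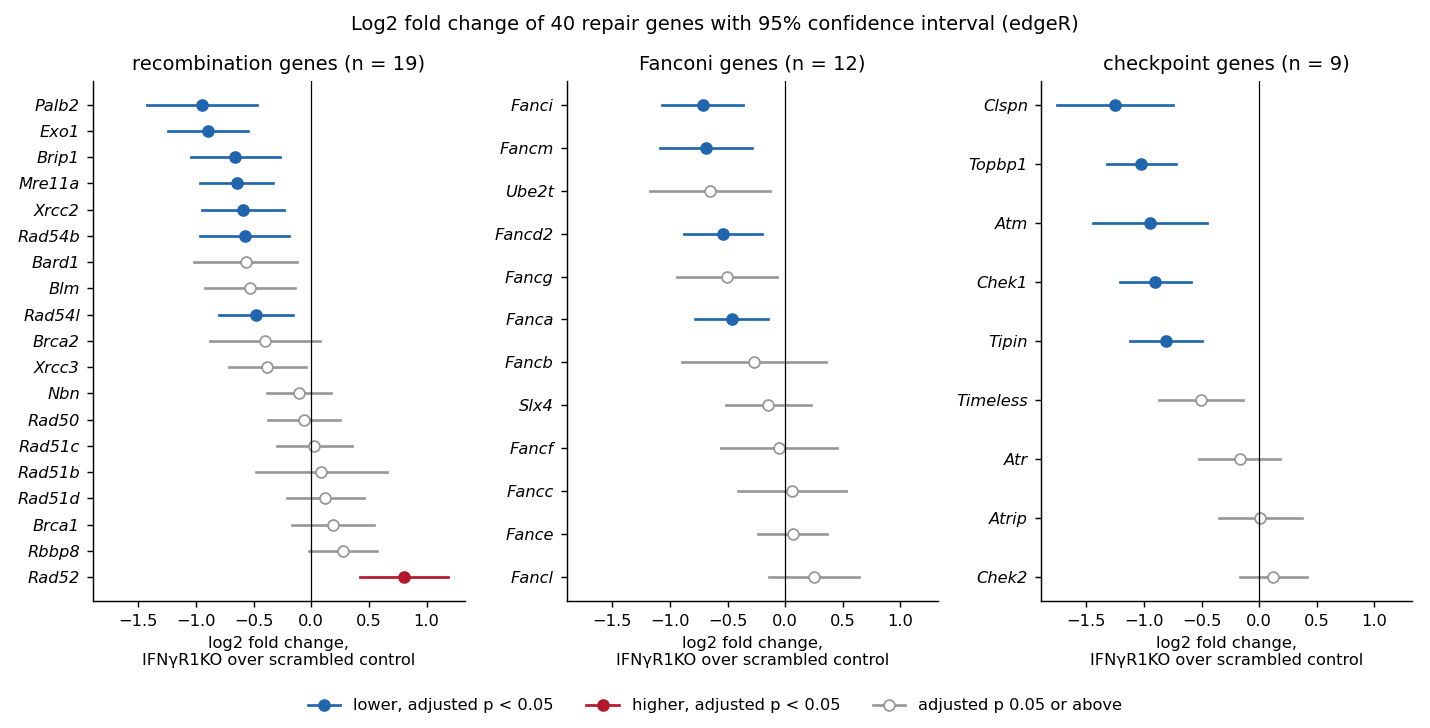
Log2 fold change of IFNγR1KO over scrambled control (x axis) for the 40 genes, grouped by role, with 95% intervals from edgeR's fit and color for the call. The 16 genes that fell reach from -1.25 (Clspn) to -0.46 (Fanca), and Rad52 stands alone above 0 with a call, at 0.80.

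The number that fell depended on single libraries. It was 6 without IFNγR1KO replicate 10, beside 3.73% of all tested genes that fell in that fit, 8 without replicate 11, beside 3.25%, and 19 without replicate 12, beside 10.3%, so the calls over all tested genes moved with it. Of the 40 genes, 6 (Palb2, Exo1, Chek1, Topbp1, Clspn and Tipin) fell in every fit without 1 library, 6 in all, as Rad52 rose in each. Without IFNγR1KO 10, 2 recombination, 4 checkpoint and 0 Fanconi genes fell by the adjusted p of edgeR. Without scrambled control 1, 2 or 3, 12, 11 and 11 of the 40 fell, beside 6.17%, 4.03% and 6.46% of all tested genes. The libraries held 9402640 to 10579788 counts in scrambled control and 6698956 to 7409479 in IFNγR1KO. With all libraries thinned to the smallest total 14 of the 40 genes fell, and 977 of all tested genes. Scrambled control 3 and IFNγR1KO 12 stood apart from the other libraries of their group in the same way: with genes divided by transcript length into 4 groups of equal size, their median deviation from the group mean over the shortest was -0.153 and -0.141 on the log2 scale, over the longest it was 0.153 and 0.132, and their deviations had a correlation of 0.637 over 13642 genes, a description, since genes are not replicates. Without both libraries 19 of the 40 genes fell, beside 11.8% of all tested genes; with a term for both in the model 23 fell, beside 18.6%. The targeted Ifngr1 was still counted in every IFNγR1KO library, with a log2 fold change of -0.47 (SE 0.16, adjusted p = 0.0729), so its RNA does not check the labels (SE is the standard error of the log2 fold change). Of the marker lists, all 7 melanocyte markers were expressed and none was called different, with a summed level of 31700 to 34700 CPM (counts per library scaled to a common size) in scrambled control and 27900 to 32800 CPM in IFNγR1KO. Leukocyte, endothelial and keratinocyte markers were at or near 0, with at most 3 counts per gene and library. The 3 fibroblast markers summed to 57.0 to 75.3 CPM and to 129 to 133 CPM, with Col1a1 and Col1a2, which melanoma cells can also make, higher in IFNγR1KO cells and Pdgfra not called; their part in the results was not tested.

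The largest changes of the 40 genes, those of Clspn and Topbp1, were in the ATR branch. Palb2 and Atm, outside it, followed at a log2 fold change of -0.95 each. ATR is brought to coated single strands by ATRIP, is switched on by TOPBP1, and passes its signal through Claspin to CHK1; TIMELESS and TIPIN travel with the fork and assist Claspin. Of the 4 mediators Topbp1, Clspn, Timeless and Tipin, 3 fell, with a median log2 fold change of -0.91, while the kinase Atr and its partner Atrip were not called.

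Topbp1 (chr9:103305215-103350428, plus strand, GRCm38) was at 186, 172 and 195 CPM in scrambled control 1, 2 and 3 and at 79.1, 95.8 and 97.6 CPM in IFNγR1KO 10, 11 and 12. Each IFNγR1KO library lay well below each control library, and the log2 fold change was -1.02 (SE 0.14, adjusted p = 0.000529). Clspn (chr4:126556935-126593903, plus strand), which encodes Claspin, was at 38.2, 41.3 and 54.2 CPM in scrambled control and at 11.8, 19.8 and 24.6 CPM in IFNγR1KO cells. Its groups did not overlap either, although its IFNγR1KO libraries spread widely, from the lowest in replicate 10 to the highest in replicate 12. The log2 fold change of Clspn was -1.25 (SE 0.23, adjusted p = 0.00343), the largest of the 40. Tipin was at 112, 111 and 89.9 CPM and at 60.8, 65.0 and 53.0 CPM, in the same order of libraries. Here scrambled control 3 was the lowest control library and still above all IFNγR1KO libraries, with a log2 fold change of -0.81 (SE 0.14, adjusted p = 0.00288). Timeless, its partner, was at 53.0, 66.0 and 71.7 CPM and at 37.1, 43.5 and 53.7 CPM. The highest IFNγR1KO library of Timeless lay above the lowest control library, and its log2 fold change of -0.51 had an adjusted p of 0.0606, a gene called lower in 5 of 13 alternatives. The log2 ratio of Tipin to Timeless overlapped between the groups, with a difference of -0.294.

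Of the kinases, Chek1 fell and Chek2 did not. Chek1 (chr9:36708482-36727065, minus strand), which encodes the kinase that holds back CDC25A under replication stress, was at 45.1, 46.4 and 42.4 CPM in scrambled control and at 22.9, 26.6 and 22.2 CPM in IFNγR1KO cells. Both groups were tight and far apart, and the log2 fold change was -0.90 (SE 0.14, adjusted p = 0.00129). Chek2, the effector kinase downstream of ATM, was at 38.5, 41.5 and 36.7 CPM and at 44.8, 43.5 and 38.9 CPM. Its groups overlapped, its log2 fold change was 0.12 (95% interval -0.17 to 0.41), and a change as large as that of Chek1 lies outside this interval. The log2 ratio of Chek1 to Chek2 differed by -1.03 between IFNγR1KO and scrambled control, with no overlap of the groups. This and all ratios given here were formed after the calls were known, so they are a description, with no test.

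Among the apical kinases, Atm (chr9:53439149-53536740, minus strand), the kinase of double-strand breaks, was at 28.0, 23.1 and 34.4 CPM in scrambled control and at 10.7, 13.3 and 20.4 CPM in IFNγR1KO cells. The groups did not overlap, with IFNγR1KO 12 nearest to the control libraries. Its log2 fold change was -0.95 (SE 0.23, adjusted p = 0.0158), and the call was lost without IFNγR1KO 10 (adjusted p = 0.0636) and without IFNγR1KO 11 (adjusted p = 0.0832). Atr was at 20.2, 16.6 and 21.6 CPM and at 18.2, 17.3 and 16.5 CPM, with overlapping groups and a log2 fold change of -0.17 (95% interval -0.52 to 0.18). Atrip, which shares 16% of its exonic bases with Trex1 on the same strand, was at 0.01 (95% interval -0.35 to 0.37). The log2 ratio to Atr differed between the groups by -0.868 for Topbp1 and by -1.14 for Clspn, without overlap.

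**Figure D2:**
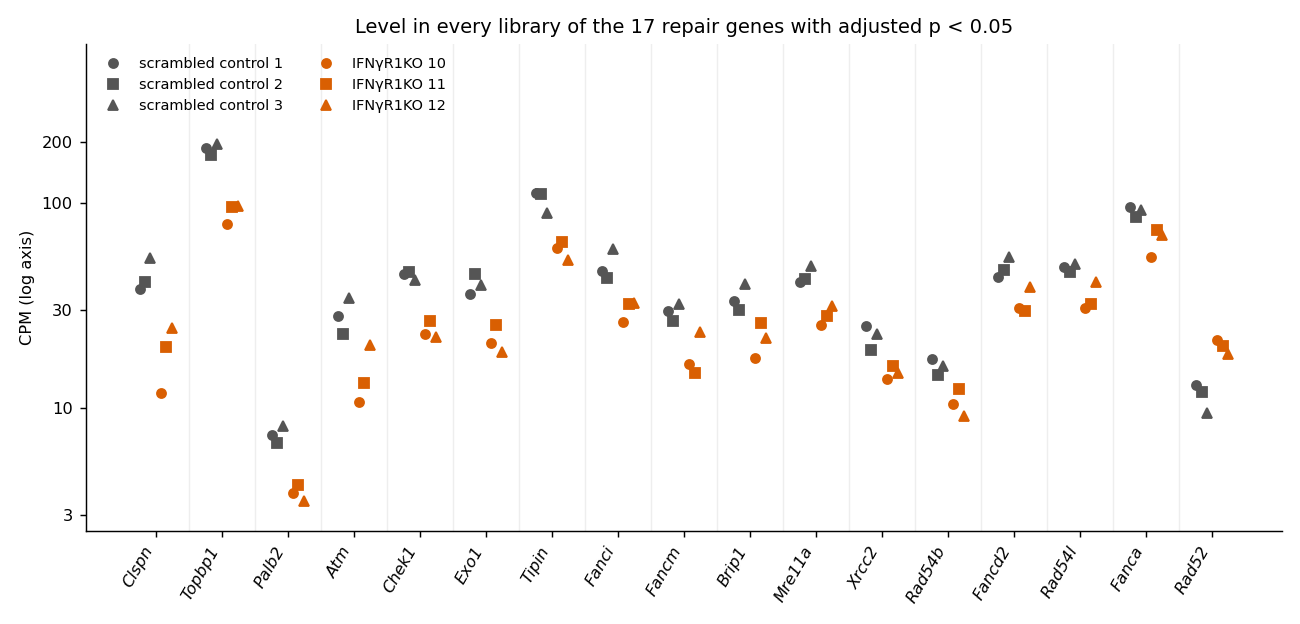
Level of the genes that were called different, in CPM on a log axis, in each of the 3 scrambled control and 3 IFNγR1KO libraries, with a symbol for each library. The IFNγR1KO points of Topbp1, Clspn and Chek1 lie below all control points, and those of Rad52 lie above them.

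In recombination, 7 of the 19 genes fell, among them 2 of the 6 that resect broken ends. Exo1, the exonuclease of long-range resection, was at 35.9, 44.97 and 40.1 CPM in scrambled control and at 20.9, 25.3 and 18.8 CPM in IFNγR1KO cells. Its groups were clearly apart, with a log2 fold change of -0.89 (SE 0.16, adjusted p = 0.00288). Mre11a, the nuclease of the complex that first holds the broken ends, was at 41.4, 42.5 and 49.7 CPM and at 25.6, 28.3 and 31.4 CPM. Again no IFNγR1KO library reached a control library, and the log2 fold change was -0.65 (SE 0.15, adjusted p = 0.0108; 0.0623 without IFNγR1KO 10 and 0.0618 without IFNγR1KO 11). The other members of that complex, the ATPase Rad50 and the adaptor Nbn, were not called, at -0.07 (95% interval -0.38 to 0.25) and -0.11 (95% interval -0.38 to 0.17). Still, every IFNγR1KO library of Nbn (up to 46.74 CPM) lay below every scrambled control library (from 47.25 CPM). The log2 ratio of Mre11a to Rad50 differed by -0.575 between IFNγR1KO and scrambled control and that of Mre11a to Nbn by -0.54, both without overlap, and the ratio of Rad50 to Nbn differed by 0.0349 with overlapping groups. Rbbp8, which encodes CtIP, the cofactor of that nuclease, was at 31.5, 31.2 and 30.3 CPM and at 38.5, 40.1 and 34.02 CPM. It was higher in every IFNγR1KO library but not called, with a log2 fold change of 0.28 (adjusted p = 0.202). The helicase Blm, which acts in long-range resection and in resolving joined molecules, had a log2 fold change of -0.53 (adjusted p = 0.066) without overlap of the groups.

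Of the 5 BRCA genes, Palb2 and Brip1 fell, and Brca1, Brca2 and Bard1 were not called. Palb2, which links BRCA1 to BRCA2, was at 7.38, 6.77 and 8.21 CPM in scrambled control and at 3.84, 4.2 and 3.52 CPM in IFNγR1KO cells. These are 25 to 85 counts a library, yet the groups were well apart and the log2 fold change was -0.95 (SE 0.22, adjusted p = 0.0122); 5.64% of its exonic bases lie under a gene on the other strand. Brip1, the helicase that binds BRCA1, was at 33.4, 30.2 and 40.2 CPM and at 17.5, 26.2 and 22.1 CPM. It fell by 0.66 on the log2 scale (adjusted p = 0.0262) without overlap, and the call was lost without scrambled control 1 (adjusted p = 0.0501), scrambled control 3 (0.0628) or IFNγR1KO 10 (0.121). Brca1 was at 129, 102 and 118 CPM and at 158, 133 and 106 CPM. Its groups overlapped, with the highest value and the next to lowest both in IFNγR1KO cells, and its log2 fold change was 0.19 (95% interval -0.17 to 0.54, adjusted p = 0.505). Brca2, which acts at the resected strand, had -0.40 (95% interval -0.88 to 0.08), with IFNγR1KO 12 at 19.5 CPM among control libraries of 15.5 to 21.7 CPM and the other IFNγR1KO libraries at 11.5 and 11.8 CPM. Bard1, the partner of BRCA1 in its ubiquitin ligase, was below control in every IFNγR1KO library, at -0.57 (adjusted p = 0.0825).

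Of Rad51b, Rad51c, Rad51d, Xrcc2 and Xrcc3, which form complexes that assist strand invasion, 1 of 5 fell and none rose. Xrcc2 was at 25.3, 19.3 and 23.0 CPM in scrambled control and at 13.9, 16.1 and 14.8 CPM in IFNγR1KO cells. It fell by 0.59 on the log2 scale (adjusted p = 0.0299), a call lost without scrambled control 1 or 3 or IFNγR1KO 10 or 11, at adjusted p of 0.052 to 0.121. Rad51b, Rad51c and Rad51d had log2 fold changes of 0.09, 0.03 and 0.12, all with overlapping groups, and their 95% intervals reached from -0.48 to 0.65, from -0.30 to 0.35 and from -0.21 to 0.45. Xrcc3 had -0.38 (adjusted p = 0.118) and did not overlap. Rad51b was the least steady of the 40 genes among IFNγR1KO libraries, with a coefficient of variation of 37.3%, beside a median of 15.2% in that group and 12.6% in scrambled control.

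Rad52 and the Rad54 translocases, which act at strand annealing and invasion, moved in opposite directions. Rad52 (chr6:119902698-119922828, plus strand), which anneals single strands, was at 12.9, 11.9 and 9.47 CPM in scrambled control and at 21.5, 20.2 and 18.3 CPM in IFNγR1KO cells. Every IFNγR1KO library stood above every control library, at 175% of the control level, with a log2 fold change of 0.80 (SE 0.17, adjusted p = 0.0087). Rad54l, a translocase that drives strand invasion, was at 49.1, 46.0 and 50.3 CPM and at 30.7, 32.2 and 41.3 CPM. It fell by 0.48 on the log2 scale (adjusted p = 0.0471), a call kept only in the fit without IFNγR1KO 12 among those without 1 library (adjusted p up to 0.214 in the others), and 15.4% of its exonic bases lie under Lrrc41 on the other strand. Its relative Rad54b fell by 0.58 (adjusted p = 0.0465), but shares 35.8% of its exonic bases with Fsbp on the same strand and lost the call in each of the 6 fits without a library and with DESeq2 (adjusted p = 0.065).

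Among the Fanconi genes, both subunits of the clamp fell. Fanci was at 46.8, 43.4 and 59.8 CPM in scrambled control and at 26.4, 32.2 and 32.6 CPM in IFNγR1KO cells. Fancd2 was at 43.4, 47.2 and 54.6 CPM and at 30.7, 29.9 and 39.2 CPM. Neither had overlapping groups, and the log2 fold changes were -0.72 for Fanci (SE 0.16, adjusted p = 0.0108) and -0.54 for Fancd2 (SE 0.16, adjusted p = 0.0341). Fanci lost its call without IFNγR1KO 10 (adjusted p = 0.0575), and Fancd2 lost it without scrambled control 2 or 3 or IFNγR1KO 10 or 11 (adjusted p of 0.09 to 0.179). The ratio of Fanci to Fancd2 overlapped between the groups, with a difference of -0.165 on the log2 scale, and so did that of Fancd2 to Fancl, with -0.792. Fanci has 16% of its exonic bases under Polg on the other strand.

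The core complex that puts ubiquitin on the clamp was mixed, with 2 of 8 genes lower and a median of -0.16. Fancm, the translocase that anchors the complex on DNA, was at 29.6, 26.8 and 32.3 CPM and at 16.5, 14.9 and 23.6 CPM. Fanca, a large scaffold subunit, was at 96.0, 85.5 and 92.9 CPM and at 54.7, 74.0 and 70.01 CPM. Both were lower in every IFNγR1KO library, with log2 fold changes of -0.69 (adjusted p = 0.0252) and -0.46 (adjusted p = 0.0479). Without scrambled control 1 or 2 or IFNγR1KO 10 or 11 Fancm lost its call (adjusted p of 0.0563 to 0.143), and Fanca lost it without any 1 library but IFNγR1KO 12 (adjusted p of 0.0751 to 0.233). Fancl, the ubiquitin ligase subunit, was at 25.1, 21.7 and 17.97 CPM and at 26.0, 29.8 and 21.1 CPM, with overlapping groups and a log2 fold change of 0.25 (95% interval -0.14 to 0.64). Its partner enzyme Ube2t, which carries the ubiquitin, was at 49.0, 34.9 and 28.0 CPM and at 27.1, 28.3 and 15.6 CPM. The replicates of Ube2t spread more than those of any other of the 40 genes in scrambled control (coefficient of variation 28.6%), replicates 3 and 12 were the lowest of their groups, and its log2 fold change of -0.65 was not called (adjusted p = 0.0878). Fancb, Fancc, Fance, Fancf and Fancg, further core subunits, had log2 fold changes between -0.50 (Fancg) and 0.06 (Fance) and were not called. Of these, Fancg alone had groups without overlap, with every IFNγR1KO library below control. Slx4, the scaffold of the nucleases that cut the crosslink out, was at -0.15 (95% interval -0.52 to 0.22).

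Per length, the 40 transcripts differed widely in level. Scaled to 1 kb of annotated exons, Tipin was highest in scrambled control, at 55.8 CPM per kb, followed by Nbn at 19.3, Rad50 at 17.5, Topbp1 at 16.4 and Brca1 at 13.6 CPM per kb. The lowest were Palb2 at 1.01 CPM per kb and Atr at 0.823 CPM per kb. Exons of all annotated isoforms are joined in these lengths, 23629 bases for Atr, which lowers the level per kb of genes with long, seldom used exons. In IFNγR1KO cells Tipin remained highest, at 31.9 CPM per kb. Topbp1 stood at 8.09 CPM per kb, under Nbn (17.9), Rad50 (16.8), Brca1 (15.5), Chek2 (14.1), Fance (10.06) and Rad51d (9.19) as well.

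**Figure D3:**
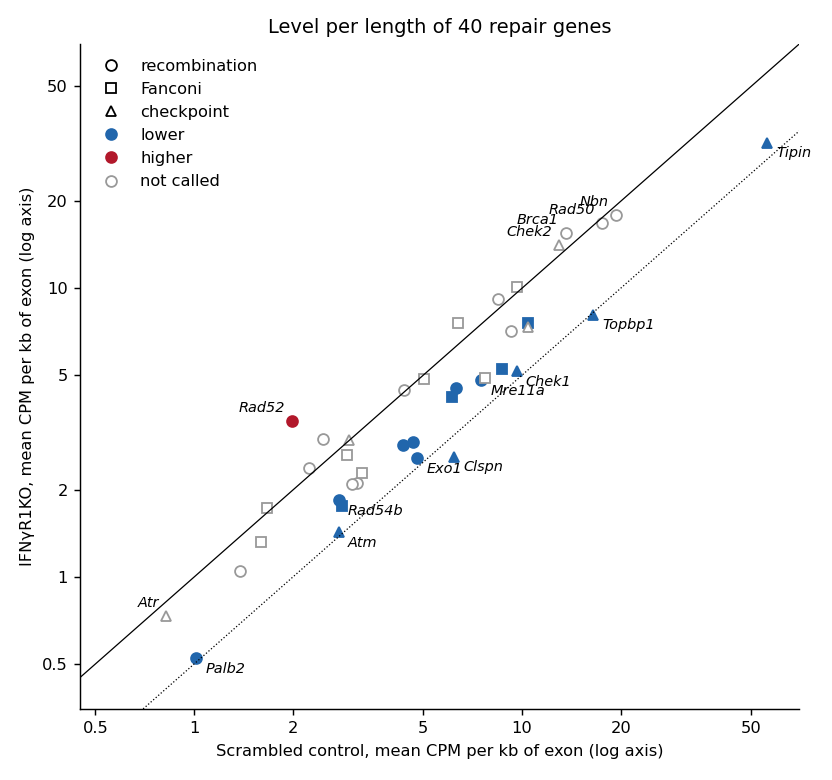
Mean level per kb of annotated exons, in CPM per kb on log axes, in scrambled control (x axis) and IFNγR1KO cells (y axis), with 1 point for each of the 40 genes, a line for equal levels and a dotted line for 0.5 times the control level. Topbp1 and Clspn lie just under the dotted line, and Rad52 is the called point above the line of equal levels.

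Of 60 further genes of the same pathways 59 were tested (the meiotic recombinase Dmc1 was at or near 0), 17 fell (28.8%) and 2 rose, with a median log2 fold change of -0.21. The 5 with the smallest adjusted p that fell were Rpa2, a subunit of the single-strand coat (-1.12, adjusted p = 0.000578), the phosphatase Cdc25a (-1.11, adjusted p = 0.000744), the resection nuclease Dna2 (-1.05, adjusted p = 0.00193), Tonsl, which helps forks recover (-1.11, adjusted p = 0.00218), and the CDK inhibitor kinase Wee1 (-1.06, adjusted p = 0.00285). Those that rose were Fbh1, a helicase that holds recombination back (0.42, adjusted p = 0.0345), and Mus81, a nuclease of joined molecules (0.51, adjusted p = 0.0400), 3.39% of the 59 beside the 7.73% of all tested genes that rose. Both kept the call in 1 of 6 fits without a library and lost it without the filter on low counts, at adjusted p of 0.106 for Fbh1 and 0.0654 for Mus81, and Mus81 lost it with DESeq2 (0.0599) and after thinning (0.082).

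Genes of DNA replication and of mitosis were also lower more often than higher. Of 48 DNA replication genes 27 fell, at a median of -0.56 on the log2 scale, and of 36 mitosis genes 25 fell, at a median of -0.63; none of either list rose. The other repair pathways are given beside 7.62% of all tested genes that fell and 7.73% that rose. Of 10 end joining genes 1 fell and 1 rose (10% each, median 0.13). Of 20 nucleotide excision repair genes none fell and 1 rose (5%, median 0.08). Of 17 base excision repair genes 1 fell (5.88%) and 2 rose (11.8%), with a median of 0.15. Of 7 mismatch repair genes 2 fell (28.6%, median -0.11) and none rose. The differences between these lists were not tested, and the part of the share of cycling cells in them was not tested either.

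**Figure D4:**
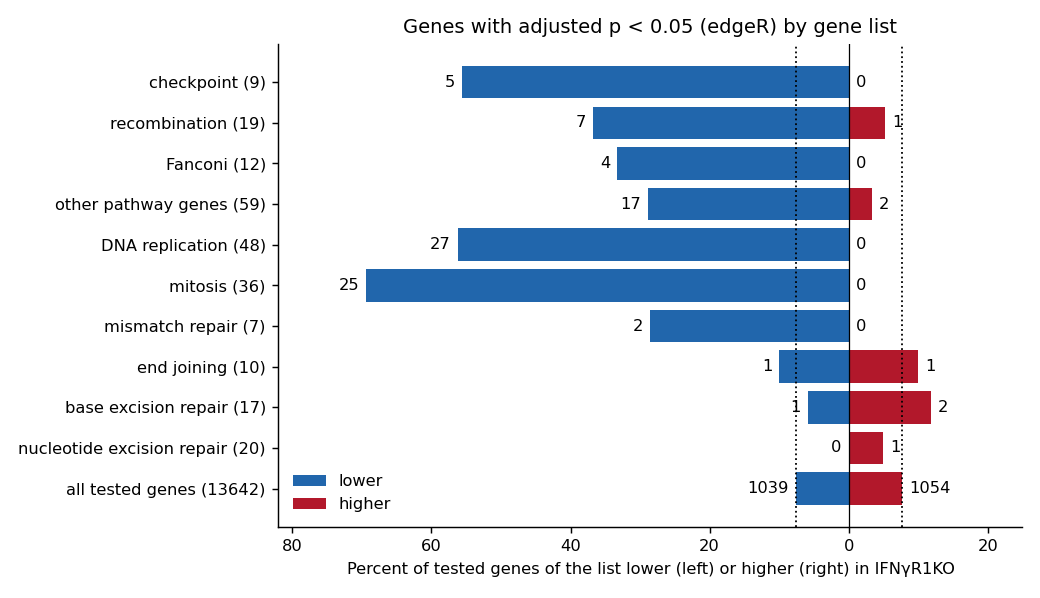
Percent of the tested genes of each list with an adjusted p under 0.05 in edgeR that were lower (bars to the left) or higher (bars to the right) in IFNγR1KO cells, with the number of genes at each bar's end and dotted lines at the percentages of all tested genes. The bars to the left reach 69.4% for mitosis, 56.2% for DNA replication and 55.6% for checkpoint genes, beside 7.62% of all tested genes.

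The position of the genes was recorded because 7 of the 40 lie on chromosome 9 (Mre11a, Chek1, Tipin, Atr, Topbp1, Atm and Atrip), and 5 of these fell. All of them but Mre11a are checkpoint genes. Of the checkpoint genes on other chromosomes, Clspn fell, and Chek2 and Timeless were not called. Of the 792 tested genes of chromosome 9, 111 (14%) fell and 32 rose, with a median log2 fold change of -0.17, whereas the medians of the other chromosomes lay between -0.04 and 0.05 and their shares that fell between 5.23% and 9.51%, over 20 chromosomes with at least 50 tested genes in all. After the median of chromosome 9 was taken off, the log2 fold changes were -0.85 for Topbp1, -0.78 for Atm, -0.73 for Chek1, -0.63 for Tipin and -0.48 for Mre11a. Of the 33 genes on other chromosomes 11 fell and 1 rose, with a median of -0.40. The lower level of chromosome 9 cannot be told apart from the difference between the lines, and its part in these 5 genes was not tested.

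**Figure D5:**
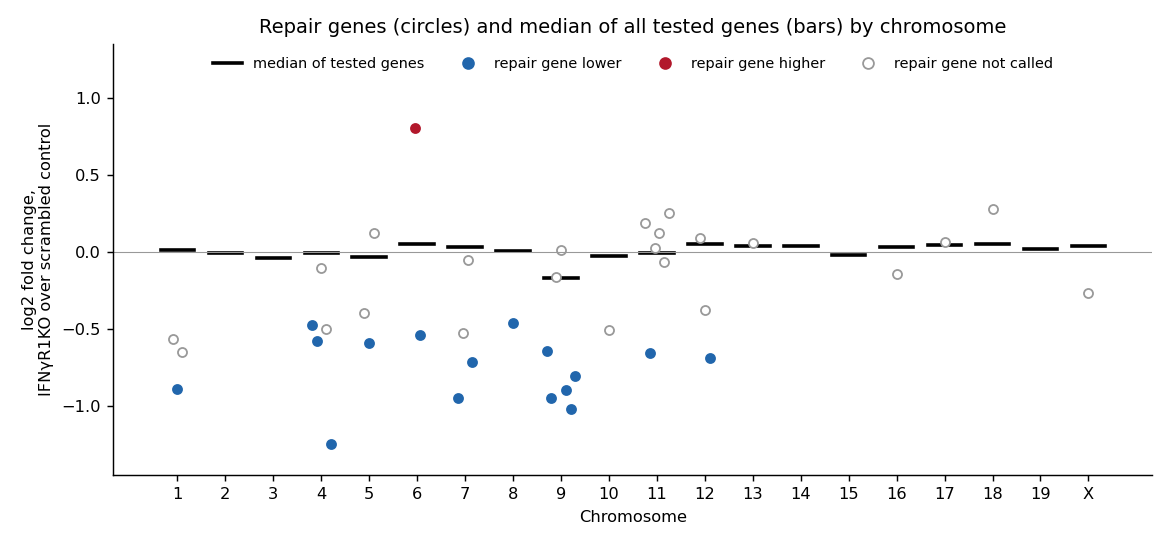
Median log2 fold change of all tested genes of each chromosome with at least 50 tested genes, as a bar, with the 40 recombination, Fanconi and checkpoint genes as circles on the same log2 scale, filled where called. Chromosome 9 has the lowest median, -0.17, and the points of Topbp1, Atm, Chek1, Tipin and Mre11a lie below it.

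Promoter sequence was looked at for a feature that the choice of genes did not use. RefSeq windows of GRCm38.p6, 250 bases before to 50 after the start of transcription, were matched for 31 of the 40 genes. Searched on both strands, GCGGGAA or GCGCGAA, which are cores of the site that E2F factors bind, stood in the window of 15 of these 31 genes, beside 6.86% of all 27025 genes with a window and 13.2% of the 9470 tested genes with one. They were in 7 of the 11 matched genes that fell, in 7 of the 19 that were not called and in Rad52, which rose. Exo1, Tipin, Fancd2, Rad54b and Xrcc2 fell but had no window, so they are not among the 11. The windows of Palb2, Rad54l, Mre11a and Fanca, which also fell, hold none. A stretch of each gene that fell and holds a match is shown, and those of Rad52 and Chek2 because they hold it beside a rise and no call. Capitals mark the match, and where it reads TTCCCGC it lies on the other strand of the window.
Topbp1, chr9:103305187-103305216, plus strand: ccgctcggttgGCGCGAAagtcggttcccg
Clspn, chr4:126556990-126557019, plus strand: accgcgtctggGCGCGAAagctcgaacttc
Chek1, chr9:36726609-36726638, minus strand: cagcatgacgcaagcaggttttgGCGGGAA
Atm, chr9:53536638-53536667, minus strand: tagagccggaaGCGGGAAggcgtgcgtaca
Brip1, chr11:86201179-86201208, minus strand: aggggcgggagGCGCGAAttcatctgtgtg
Fanci, chr7:79392345-79392374, plus strand: cgtggagtagaGCGGGAAttttggaaggat
Fancm, chr12:65075538-65075567, plus strand: aaccaatcatcTTCCCGCcgcaaaatcggc
Rad52, chr6:119902555-119902584, plus strand: ttgctgcggctGCGGGAAggctgatcgccg
Chek2, chr5:110839820-110839849, plus strand: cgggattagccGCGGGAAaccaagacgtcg

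The matches shown began between 152 bases before the start (Chek2) and 44 bases after it (Chek1). Those of Topbp1 and Rad52 began at 129 and 132 bases before, and those of Atm, Fanci and Clspn at 16, 19 and 22 bases after. Fancm held another match, GCGCGAA on the other strand at -107 bases from the start, which is not shown. In uncalled genes not shown, matches began farther upstream, at -208 (Bard1), -172 (Fancb), -168 (Brca2) and -159 bases (Ube2t). Those of Fancg and Rad51c lay within the range of the matches shown. Both spellings occurred: GCGGGAA in 12 and GCGCGAA in 5 of the 31 genes, with Fancm and Rad51c holding both. CCAAT, the core of the NF-Y site, was in 20 of the 31 genes, beside 43.3% of the tested genes with a window, and TTTGAA, the core of the CHR element of late cell cycle genes, in 2 (Bard1 and Rad51b), beside 14.4%. A match is a description of the letters and not of binding, and the motifs were chosen after the fold changes were known.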

How the data were processed

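The authors aligned paired-end poly(A) reads to GRCm38 with STAR 2.7.5a and deposited 1 table a library of unscaled counts, made per gene with HTSeq 0.11.2; the annotation release and strand setting are not given in the sources used here. The study tested with DESeq2 1.34.0. Here, all genes were fitted in R 4.3.3 with edgeR 4.0.16 (filterByExpr, minimum count 10 and minimum total 15, TMM, quasi-likelihood test, Benjamini-Hochberg over 13642 genes), and CPM are counts over TMM-scaled library sizes, 0.0966 to 0.142 CPM per count. Rows that name no gene, 46.9% to 47.7% of reads without a feature, stayed out. DESeq2 1.42.0, limma 3.58.1 (voom), RLE scaling, no filter, thinning and leaving out each library were alternatives. Of the 55335 identifiers 55154 were found in GENCODE M21. Of the 40 genes, 9 have at least 5% of their exonic bases under a gene on the other strand and 2 on the same strand. Named were all 40 genes, Ifngr1 and up to 5 further pathway genes a direction with the smallest adjusted p. The genes, lists and tests were chosen with earlier results of these data known. Replicates were compared by a chi-square of their counts and no pair agreed within sampling noise. Not analysed here were the study's protein, flow cytometry and animal data. A result of 1 gene is not reported here.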

Additional observations from a re-analysis of the deposited data

How the results depend on the processing

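No paired analysis was made because the groups share no replicate numbers (1, 2 and 3 against 10, 11 and 12) and the labels name no pairs. Deviations from the group mean correlated at 0.406 for 1 and 10, 0.151 for 2 and 11 and 0.637 for 3 and 12. They also correlated at 0.282 for 1 and 11 and 0.174 for 2 and 10, with the other values between the groups below 0. Whether libraries were handled in pairs was not tested. Of the 40 genes 16 fell with edgeR, 15 with DESeq2, 16 with RLE scaling and with voom, 20 without the filter, 14 after thinning and 6 to 19 without 1 library. In each of these fits 1 rose. Over all tested genes 1039 fell with edgeR, 1102 with DESeq2, 1044 with RLE scaling, 1021 with voom, 1435 without the filter and 977 after thinning. Without 1 library, 2 to 9 recombination, 0 to 4 Fanconi, 4 to 6 checkpoint, 8 to 17 further pathway, 17 to 31 replication and 14 to 29 mitosis genes fell, 0 to 3 further pathway genes rose, 1 to 4 of the 40 were DEGs, and over all tested genes 457 to 1452 fell and 535 to 1372 rose. Of the further pathway genes 1 rose with DESeq2 and 0 without the filter. Chosen after seeing the data, a term for scrambled control 3 and IFNγR1KO 12 gave 2 of the 40 that rose, 11 recombination genes and 26 further pathway genes that fell, 5 of the latter that rose, and 2540 genes that fell and 2243 that rose in all; leaving both out gave 1617 that fell. The causes were not tested. The sign turned in uncalled genes near 0 only: Rad51c (-0.0029 without the filter, -0.0088 thinned, -0.031 without both libraries, -0.0269 to 0.0776 without 1 library), Rad51b (-0.17 to 0.35), Rad50 (-0.20 to 0.00783), Fancc (-0.0387 without both libraries, -0.13 to 0.18), Fancf (-0.22 to 0.15) and Atrip (-0.0029 with DESeq2, -0.0207 without the filter, -0.0556 thinned, -0.12 without both libraries, -0.0708 to 0.12). Over all alternatives, 437 of the genes' values kept direction and side of the threshold, 40 lost and 23 gained a call and 20 turned sign. Palb2, Exo1, Chek1, Topbp1, Clspn, Tipin and Rad52 kept their call in all 13 alternatives. Depth limits genes such as Fancb, with 20 counts in its lowest library, where a change of the size seen in Fanca could not be told from none. With 3 samples a group no outlier was tested.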
